A study of Saccharomyces cerevisiae with 57 samples.

Results

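The promoters of 10 nuclear genes of the respiratory chain were examined in ChEC-seq maps of the general regulatory factors Abf1, Rap1 and Reb1 in budding yeast. The genes were CYC1, QCR2, QCR7, QCR8, COX4, COX5A, COX6, COX7, COX8 and COX9, chosen by name and function. COX6 and QCR8 were named as classic Abf1 targets when the list was drawn. Each promoter was taken as the 1000 bp upstream of the start codon on the sacCer3 genome build, and the 10 windows are a subset of the 5977 protein-coding promoters measured. In ChEC-seq (chromatin endogenous cleavage with sequencing) a factor is fused to micrococcal nuclease (MNase), calcium is added to permeabilized cells, the tethered nuclease cuts DNA close to where the factor sits, and the small fragments released are sequenced from both ends. The level of a promoter is the number of fragment ends inside it for every 1000000 ends mapped to nuclear chromosomes outside the ribosomal DNA (EPM).

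All strains were made in the W1588-4C background and grown in YPD. The main groups were Abf1-MNase (ABF1-3FLAG-MNase-kanMX6), Rap1-MNase (RAP1-3FLAG-MNase-kanMX6) and Reb1-MNase (REB1-3FLAG-MNase-kanMX6), each a C-terminal fusion at the factor's own locus, and free MNase (ura3::P_REB1-3FLAG-MNase-NLS-URA3), an untethered nuclease with a nuclear localization signal expressed from the REB1 promoter. Each group was sampled without calcium, every 10 s up to 60 s after calcium, and then at 2.5 m, 5 m, 10 m and 20 m. The 30 s point of each factor had 3 libraries, and every other point, free MNase at 30 s included, had 1. Further single libraries held Abf1 and Reb1 fused through a shorter linker, Reb1 with MNase at its N terminus on a plasmid (pRS413-P_REB1-MNASE-3FLAG-REB1), and Abf1 mapped by MNase-X-ChIP-seq, in which chromatin is crosslinked, cut with MNase and immunoprecipitated. In the N-terminal strain the chromosomal REB1 was deleted (reb1Δ::kanMX6). By the study's methods, the time points of a digest are aliquots of 1 culture. Whether the points in seconds and in minutes of a course came from the same digest is not stated. Nothing in the labels says that the 3 libraries at 30 s came from separate cultures, so p-values measure the spread between libraries.

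The respiratory chain of the inner mitochondrial membrane passes electrons through complex III (cytochrome bc1, with the QCR subunits) and cytochrome c (CYC1) to complex IV (cytochrome c oxidase, with the COX subunits), which reduces oxygen. In yeast these nuclear genes are known targets of the CCAAT-binding Hap complex and, for some, of heme-responsive Hap1. Abf1, Rap1 and Reb1 are abundant sequence-specific factors that bind promoters of many unrelated genes and help keep them free of nucleosomes.

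The sequences below are those in which cleavage was concentrated at the promoters the results turn on, read from the RefSeq sacCer3 reference, which derives from S288C and may differ from the W1588-4C strain. In the first 3, capitals mark the match to the 13-bp Abf1 consensus with 50 bp on each side. In CYC1, capitals mark a pair of Abf1 consensus matches and then TTACCC, the core of the Reb1 motif, read on the other strand as GGGTAA. In QCR7 and COX9, capitals mark the 51-bp window with the most ends in the mean of the 3 Reb1 and of the 3 Abf1 libraries at 30 s, with 20 bp on each side; no motif searched is marked in these.
COX6, chrVIII:209354-209466, plus strand: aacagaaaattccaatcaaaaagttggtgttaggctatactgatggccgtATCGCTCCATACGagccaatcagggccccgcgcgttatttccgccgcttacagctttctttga
QCR2, chrXVI:919131-919243, plus strand: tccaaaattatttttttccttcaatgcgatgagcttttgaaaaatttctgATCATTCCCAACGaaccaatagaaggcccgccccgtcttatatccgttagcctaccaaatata
QCR8, chrX:106138-106250, plus strand: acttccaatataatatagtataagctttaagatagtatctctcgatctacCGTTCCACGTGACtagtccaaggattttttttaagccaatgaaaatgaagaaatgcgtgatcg
CYC1, chrX:525821-525961, plus strand: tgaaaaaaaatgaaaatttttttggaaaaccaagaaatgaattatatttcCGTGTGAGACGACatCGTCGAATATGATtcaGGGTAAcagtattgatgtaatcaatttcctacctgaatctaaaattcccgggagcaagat
QCR7, chrIV:1496617-1496707, minus strand: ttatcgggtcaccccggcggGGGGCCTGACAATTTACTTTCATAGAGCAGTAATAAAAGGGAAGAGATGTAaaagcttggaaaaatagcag
COX9, chrIV:334449-334539, minus strand: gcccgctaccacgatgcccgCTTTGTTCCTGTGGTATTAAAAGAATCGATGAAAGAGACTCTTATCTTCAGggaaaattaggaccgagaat

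On both strands of the 1000-bp windows, the Abf1 consensus was matched in 4 of the 10 promoters (COX6, QCR2, QCR8 and CYC1) and in 24.4% of all 5977. Because COX6 and QCR8 were listed as known Abf1 targets, the share in the 10 is not that of promoters chosen without regard to Abf1. The Reb1 motif TTACCCG was in 0 of the 10 and in 13.5% of all promoters, and the Rap1 motif CACCCNNAC was in 0 of the 10 and in 7.86%. CCAAT, the sequence bound by the Hap complex, was in 9 of the 10, all but CYC1, and in 88.8% of all promoters, a share close to that of the 10. The shorter TTACCC, which was searched after the cleavage at CYC1 had been seen and which overlaps TTACCCG, was in 2 of the 10 (CYC1 and QCR8) and in 36.1% of all. In QCR8 it lay inside the coding sequence of the upstream gene ERG20. These matches describe letters in a window and not bound sites.

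The windows differed in how much of them was free of other genes. COX4 had 865 bp to its upstream neighbour TPN1 and CYC1 953 bp to the divergent ANB1, whereas COX6 held only 230 bp outside other annotated genes, because YHR050W-A lies 59 bp upstream of its start codon and SMF2 lies behind it. QCR2 is divergent from RPC82 across 339 bp, and COX9 is divergent from IDP1 across 438 bp. Ends in the spaces between divergent genes, CYC1 and ANB1 included, belong to both promoters and cannot be assigned to either gene.

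Libraries held between 47677 fragments (free MNase at 20 s, where 1 end is worth 16.7 EPM) and 13480135 (MNase-X-ChIP-seq), and those at 30 s between 2745981 and 5165350. Cleavage at 30 s within 50 bp of the Abf1 consensus was 12.35 to 14.9 times the genome mean in Abf1 libraries, against 2.58 to 3.39 in Rap1 and Reb1 libraries and 1.07 in free MNase. Around TTACCCG it was 4.955 to 7.58 times the mean in Abf1 and Rap1 libraries and 23.7 to 28.9 in Reb1 libraries. Around CACCCNNAC it was 7.86 to 10.1 times the mean in Abf1, 101.1 to 145.7 in Rap1, 25.2 to 43.8 in Reb1 and 7.39 in free MNase libraries, so at each motif the libraries of its own factor were the highest. The median promoter had 62.1 to 78.4 EPM in Abf1, 29.2 to 32.9 in Rap1, 36.7 to 55.0 in Reb1 and 79.3 in free MNase libraries. Mitochondrial DNA took 16.1% of fragments in free MNase at 30 s and 0.272% to 1.74% in the factor libraries. Distinct fragments made up 67.8% to 76.2% of Abf1, 50.8% to 55.1% of Rap1, 43.2% to 58.0% of Reb1 and 53.3% of free MNase libraries at 30 s. The labels carry a library code of unstated meaning. Replicate 1 of Abf1, replicate 1 of Rap1 and replicates 2 and 3 of Reb1 at 30 s shared a code, replicates 2 and 3 of Abf1 and Rap1 shared another, and replicate 1 of Reb1 and free MNase another still, so Abf1 and Rap1 meet free MNase within no code. Because the median promoter differs in this way between the groups, log2 fold changes below are given on the EPM scale and many again with TMM factors (trimmed mean of M values), which centre the bulk of the promoters. A change printed without a scale is on the EPM scale alone. Part of the depth and duplicate difference runs with the factor, and its part in the results was not tested except by counting identical fragments once.

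**Figure D1:**
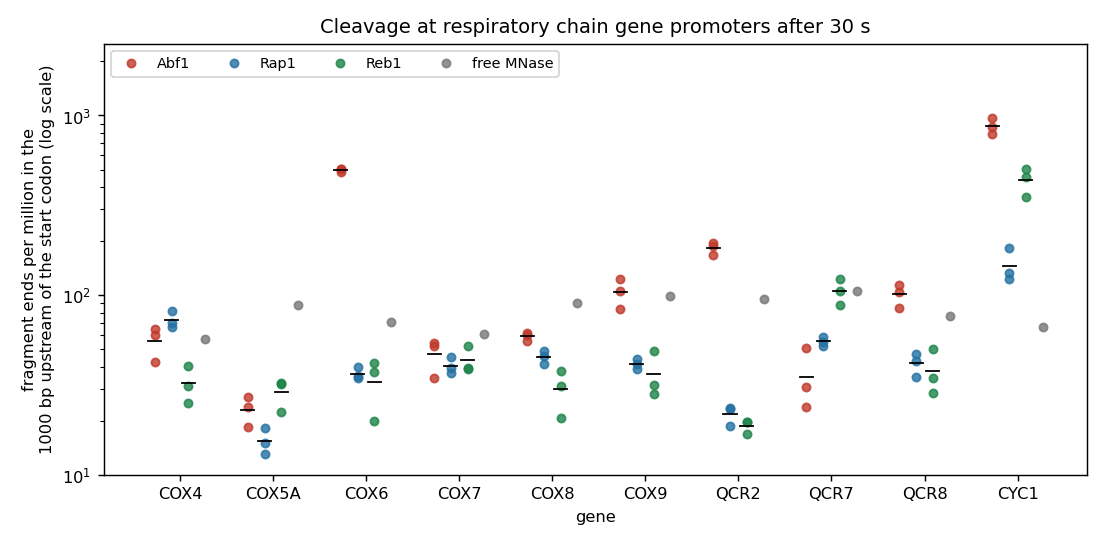
Level of the 10 promoters at 30 s in EPM (log axis), with a point for each library and a bar for the mean, in Abf1, Rap1, Reb1 and free MNase cells. Abf1 libraries stand far above all others at COX6, far above the other factors at QCR2 and highest at CYC1, and Reb1 libraries stand above the other factors at QCR7.

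CYC1, which encodes iso-1-cytochrome c, had the highest level of the 10 promoters in all 9 factor libraries. Its level was 973, 791 and 866 EPM in the 3 Abf1 libraries, 183, 132 and 123 in the Rap1 libraries, 350, 456 and 503 in the Reb1 libraries and 66.7 in free MNase. The order was thus Abf1, Reb1, Rap1 and free MNase, and the libraries of the 3 factors did not overlap. CYC1 stood above 96.7% to 96.9% of all promoters in Abf1 libraries, above 81.7% to 84.0% in Rap1 libraries and above 89.3% to 91.8% in Reb1 libraries, but only above 20.6% in free MNase. In limma's moderated test (2-sided, Benjamini-Hochberg adjustment over 5971 promoters) CYC1 was higher in Abf1 than in free MNase by 3.71 ± 0.29 on the log2 scale (SE, adjusted p = 5.8e-10), which is 13.1-fold, and higher in Reb1 than in free MNase by 2.69 ± 0.29 (adjusted p = 3.1e-08). It was also higher in Abf1 than in Rap1, by 2.60 ± 0.21 (adjusted p = 6.6e-11; 1.66 with TMM factors), and lower in Rap1 than in Reb1, by −1.58 ± 0.21 (adjusted p = 3.7e-07; −1.08 with TMM and −0.99 with median-of-ratios factors). The difference between Abf1 and Reb1 was 1.02 ± 0.21 (adjusted p = 1.5e-04) and did not keep its 2-fold size: it was 0.58 with TMM factors, 0.60 with identical fragments counted once, 0.93 with 500 bp, 0.94 without Abf1 replicate 1 and 0.86 without Reb1 replicate 1. The excess of Rap1 over free MNase was 1.11 ± 0.29 (adjusted p = 0.0011), 2.15 with TMM factors, 0.93 without Rap1 replicate 1, 0.89 with the library code as a term and 0.71 with the free MNase libraries up to 60 s as 1 group.

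Among the genes of complex III, QCR2, a core subunit of the complex, was cut in Abf1 libraries at 194, 168 and 189 EPM, against 23.4, 23.2 and 18.7 in Rap1 libraries and 19.6, 19.7 and 17.0 in Reb1 libraries. Free MNase gave 95.6 EPM at QCR2, below every Abf1 library and above every Rap1 and Reb1 library, and 80.4% of all promoters were lower than QCR2 in that library. Relative to Rap1, QCR2 was higher in Abf1 by 3.08 ± 0.20 (limma, adjusted p = 1.4e-12; 2.15 with TMM factors), and relative to Reb1 by 3.28 ± 0.21 (adjusted p = 1.7e-12; 2.83 with TMM factors). Against free MNase the Abf1 difference was 0.94 ± 0.26 (adjusted p = 0.0024), just under the 2-fold threshold, and 1.05 with TMM factors, just over it. The difference was 1.81 with 500 bp and 2.19 with bases outside other genes, and QCR2 was called higher in both. QCR2 was lower than in free MNase by −2.15 in Rap1 (adjusted p = 1.5e-07) and by −2.34 in Reb1 (adjusted p = 1.3e-07), the first of which was −0.92 with median-of-ratios factors. Rap1 and Reb1 libraries overlapped at QCR2 (0.19 ± 0.22 for Rap1 over Reb1, adjusted p = 0.43; 0.69 with TMM factors).

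QCR8, another complex III subunit, showed a smaller version of the same order. Its level was 115, 84.9 and 104 EPM in Abf1, 35.0, 43.1 and 46.8 in Rap1, 28.6, 34.7 and 49.9 in Reb1 and 76.1 in free MNase. Abf1 libraries lay above those of both other factors, while Rap1 and Reb1 libraries overlapped. The excess of Abf1 was 1.27 ± 0.21 over Rap1 (limma, adjusted p = 1.1e-05), but it no longer passed with TMM factors (0.34) or with identical fragments counted once (0.80). It was 1.46 ± 0.22 over Reb1 (adjusted p = 2.2e-06; 1.02 with TMM factors). Against free MNase, QCR8 in Abf1 differed by 0.39 ± 0.30 (adjusted p = 0.23), within the error.

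QCR7, also a subunit of complex III, had the reverse order. Abf1 libraries gave 23.8, 50.6 and 30.9 EPM at QCR7, compared with 52.4, 58.2 and 55.0 in Rap1 and 88.6, 105 and 124 in Reb1 libraries. The 3 factors did not overlap, with Abf1 lowest. QCR7 was lower in Abf1 than in Reb1 by −1.68 ± 0.23 (limma, adjusted p = 6.7e-07; −2.08 with TMM factors). It was lower in Rap1 than in Reb1 by −0.93 ± 0.22 (adjusted p = 7.7e-04), short of 2-fold, and −0.42 with TMM factors. That difference passed 2-fold with 500 bp (−1.19), with bases outside other genes (−1.31), with the library code as a term (−1.32) and without Reb1 replicate 1 (−1.05). Abf1 differed from Rap1 by −0.75 ± 0.23 (adjusted p = 0.0053), which is also short of 2-fold. The Abf1 to Rap1 difference was −1.66 with TMM factors, −1.16 with identical fragments counted once and −1.04 without Abf1 replicate 2, and QCR7 was called lower in each. Free MNase reached 105 EPM, level with Reb1 (log2 difference of Reb1 over free MNase −0.00 ± 0.32, adjusted p = 1.0, and 0.53 with TMM factors), and above every Abf1 library (−1.68 ± 0.32, adjusted p = 6.5e-05). This call for Abf1 ended with 500 bp (−0.89) and with bases outside other genes (−0.23, adjusted p = 0.62).

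COX6, subunit VI of cytochrome c oxidase, had the widest gap between Abf1 and the other factors among the 10 promoters. Abf1 libraries held 502, 485 and 502 EPM there, Rap1 libraries 35.5, 39.7 and 34.6, Reb1 libraries 19.8, 37.4 and 41.7 and free MNase 70.7. COX6 exceeded 90.0% to 91.0% of all promoters in Abf1 libraries, 54.2% to 56.1% in Rap1, 15.6% to 41.9% in Reb1 and 29.7% in free MNase. The log2 difference was 3.76 ± 0.23 for Abf1 over Rap1 (limma, adjusted p = 4.4e-13; 2.83 with TMM factors), a 13.6-fold higher level. It was 4.03 ± 0.24 for Abf1 over Reb1 (adjusted p = 4.6e-13; 3.59 with TMM factors), or 16.3-fold, and 2.81 ± 0.31 for Abf1 over free MNase (adjusted p = 5.5e-08; 2.92 with TMM factors and 1.82 with the library code as a term). Over all promoters, 99.3% had a smaller Abf1 to Reb1 log2 fold change than COX6. Rap1 and Reb1 libraries overlapped at COX6 (0.27 ± 0.23 for Rap1 over Reb1, adjusted p = 0.31; 0.76 with TMM factors). Reb1 was lower than free MNase by −1.22 ± 0.32 (adjusted p = 0.0013), but by −0.67 with TMM factors, −0.84 without Reb1 replicate 1, −0.61 with 500 bp and −0.14 with bases outside other genes.

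Of the other complex IV genes, COX9, subunit VIIa, was higher in Abf1 libraries, at 83.8, 123 and 105 EPM, than in Rap1 libraries, at 41.2, 44.0 and 39.0, and Reb1 libraries, at 28.2, 31.8 and 48.9. Abf1 exceeded Reb1 at COX9 by 1.56 ± 0.22 (limma, adjusted p = 8.2e-07; 1.12 with TMM factors) and Rap1 by 1.32 ± 0.21 (adjusted p = 6.4e-06), the second of which was 0.39 with TMM factors and 0.80 with identical fragments counted once, no longer 2-fold. Free MNase gave 98.6 EPM at COX9, inside the range of the Abf1 libraries, and the difference from Abf1 was 0.06 ± 0.30 (adjusted p = 0.85). No match to the Abf1 consensus was in the COX9 window.

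COX4, a zinc-binding subunit, was on the EPM scale the only one of the 10 with its highest factor levels in Rap1. Its level was 42.3, 65.0 and 59.6 EPM in Abf1, 66.1, 81.5 and 69.7 in Rap1, 25.04, 31.4 and 40.3 in Reb1 and 57.2 in free MNase. Rap1 exceeded Reb1 at COX4 by 1.21 ± 0.22 (limma, adjusted p = 3.4e-05; 1.70 with TMM factors), but by 0.76 with the library code as a term. Between Abf1 and Rap1 the difference was −0.40 ± 0.21 (adjusted p = 0.085), and −1.33 with TMM factors, where COX4 was called lower in Abf1. COX8, subunit VIII, had 55.4, 59.8 and 61.8 EPM in Abf1, 45.7, 41.5 and 48.6 in Rap1, 20.8, 31.1 and 37.6 in Reb1 libraries and 90.0 in free MNase. Abf1 exceeded Reb1 at COX8 by 1.06 ± 0.21 (limma, adjusted p = 1.2e-04), but by 0.62 with TMM factors, 0.70 with identical fragments counted once, 0.73 with the library code as a term and 0.77 without Reb1 replicate 1. With TMM factors Rap1 exceeded Reb1 at COX8 by 1.17, more than Abf1 did, so Rap1 was the highest factor at COX8 on that scale.

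COX5A, the form of subunit V made in aerobic growth, was the least cut of the 10 in Abf1 and Rap1 libraries relative to free MNase. Its level was 18.4, 27.0 and 23.7 EPM in Abf1, 15.1, 18.1 and 12.99 in Rap1, 22.2, 32.3 and 32.1 in Reb1 and 88.0 in free MNase. All 9 factor libraries lay below free MNase, and the log2 differences were −1.98 ± 0.30 for Abf1, −2.54 ± 0.31 for Rap1 and −1.66 ± 0.29 for Reb1 (limma, adjusted p = 3.0e-06, 1.1e-07 and 2.4e-05), or −1.84, −1.49 and −1.11 with TMM factors. With bases outside other genes COX5A no longer passed 2-fold in Abf1 (−0.87) or Reb1 (−0.96). COX7, subunit VII, ranged from 34.5 to 54.2 in Abf1, 36.8 to 45.1 in Rap1 and 39.0 to 52.1 in Reb1 libraries, with 60.7 in free MNase. The factors overlapped at COX7, and on the EPM scale none of its 6 comparisons passed the adjusted p of 0.05.

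**Figure D2:**
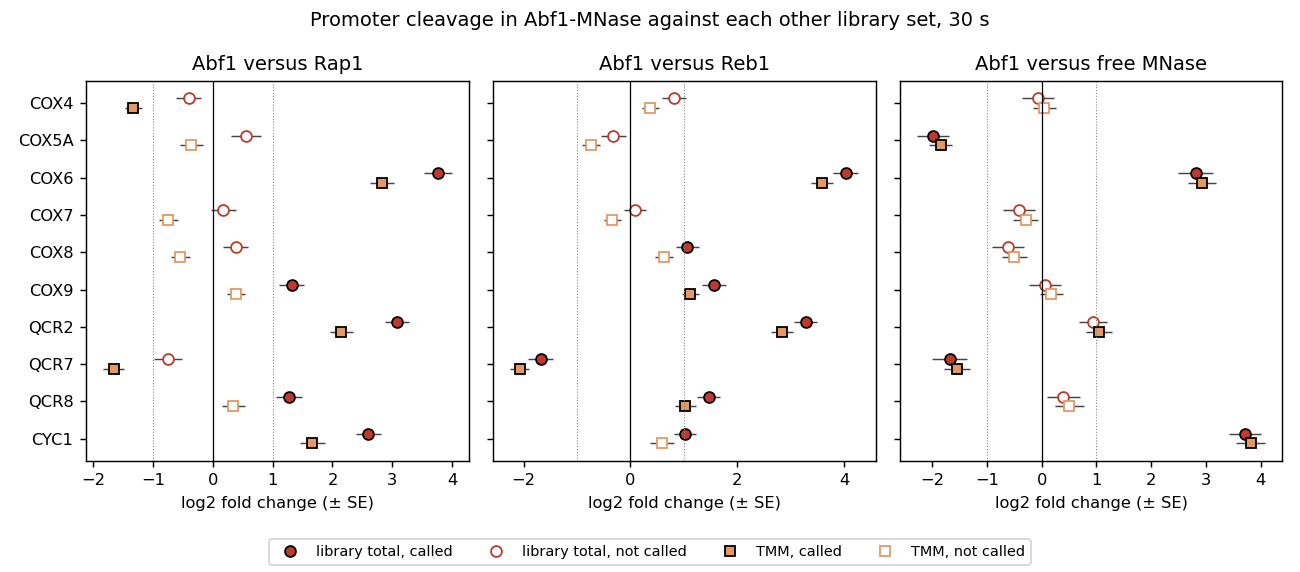
Log2 fold change of Abf1 over Rap1, Reb1 and free MNase at 30 s for each of the 10 promoters, with bars of 1 SE. Circles are on the EPM scale and squares use TMM factors, and filled symbols passed adjusted p under 0.05 and a 2-fold change, as COX6 did in each comparison on both scales.

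Counted over the 10 promoters, a call being an adjusted p under 0.05 with at least a 2-fold change, 5 were higher in Abf1 than in Rap1 (COX6, QCR2, CYC1, COX9 and QCR8) and 0 lower, against 49.1% of all 5971 tested promoters higher and 11.2% lower. The share of 5 in 10 is close to that background. With TMM factors 3 were higher (COX6, QCR2 and CYC1) and 2 lower (COX4 and QCR7), against 25.7% and 22.2% of all promoters. Abf1 against Reb1 gave 6 higher (COX6, QCR2, COX9, QCR8, COX8 and CYC1) and 1 lower (QCR7), against 32.2% and 19.4% of all promoters, and with TMM factors 4 higher and 1 lower, against 24.9% in each direction. For Rap1 against Reb1, 1 was higher (COX4) and 1 lower (CYC1), with 15.1% and 37.1% of all promoters called. TMM factors gave 2 higher, COX8 being added, and 1 lower, against 21.9% and 25.5% of all. Without Reb1 replicate 1 there were 3 lower, with COX5A at −1.09 and QCR7 at −1.05 added.

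Against free MNase, Abf1 gave 2 higher (CYC1 and COX6) and 2 lower (COX5A and QCR7), with 31.6% and 32.5% of all promoters called. With TMM factors 3 were higher, QCR2 being added, and 2 lower, with 33.2% and 29.6% of all called. For Rap1, 1 was higher (CYC1) and 3 lower (COX5A, QCR2 and COX9), with 15.7% and 58.2% of all called, and with TMM factors 2 higher, COX4 being added at 1.38, and 2 lower (COX5A and QCR2), with 25.7% and 32.4% of all called. For Reb1, 1 was higher (CYC1) and 6 lower (QCR2, COX8, COX5A, COX9, COX6 and QCR8), with 24.3% and 45% of all called. TMM factors left 3 lower (QCR2, COX8 and COX5A), with 29.7% of all promoters called higher and 28.2% lower, and with bases outside other genes 2 were higher and 1 lower. The free MNase group was 1 library whose spread was assumed to be that of the factor libraries. The 3 comparisons with free MNase share this library and the 3 between factors share their libraries in turn, so their counts are not independent.

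The median log2 fold change of the 10, beside that of all tested promoters, was 0.92 and 0.98 for Abf1 over Rap1, 1.04 and 0.34 for Abf1 over Reb1, and 0.19 and −0.59 for Rap1 over Reb1. Against free MNase the median of the 10 and of all promoters was −0.00 and −0.16 in Abf1, −0.94 and −1.37 in Rap1, and −1.14 and −0.79 in Reb1. The 10 promoters did not move as a block: within the comparison of Abf1 and Reb1 they ran between −1.68 at QCR7 and 4.03 at COX6.

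Within the library code that the 3 factors share, COX6 had 502 EPM in Abf1 replicate 1, 35.5 in Rap1 replicate 1 and 37.4 and 41.7 in Reb1 replicates 2 and 3. QCR2 had 194 in the Abf1 library, 23.4 in the Rap1 library and 19.7 and 17.0 in the Reb1 libraries of that code, and CYC1 had 973 in Abf1, 183 in Rap1 and 456 and 503 in Reb1. QCR7 had 23.8 EPM in Abf1, 52.4 in Rap1 and 105 and 124 in Reb1. Within the code Abf1 was highest at COX6, QCR2 and CYC1 and lowest at QCR7, as over all 3 replicates.

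Position within the promoters was examined next. The densest 51-bp window of each promoter had its centre outside every annotated protein-coding gene in 10 of 10 promoters in each Abf1 and Rap1 library at 30 s. This was so in 9, 9 and 10 in the Reb1 libraries, but in only 4 of 10 in free MNase. That window held a median of 29.7%, 29.9% and 31.3% of the promoter's ends in the 3 Abf1 libraries, 24.4% to 25.6% in Rap1, 18.7% to 26.5% in Reb1 and 10.8% in free MNase, where cutting was more even. Each window was chosen for its ends, so the values inside it are a description. Only its centre was placed against genes, so its edges can reach into one, and the same counts over all promoters were not made.

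At COX6 the Abf1 consensus match lay 295 bp upstream of the start codon (chrVIII:209404-209416), inside the short stretch between YHR050W-A and SMF2. The densest Abf1 window (chrVIII:209348-209398), just distal to the match, held 154, 153 and 167 EPM in Abf1 libraries, against 8.60, 8.08 and 8.52 in Rap1, 2.55, 5.82 and 6.75 in Reb1 and 2.79 in free MNase. Inside the 13 bp of the match itself Abf1 libraries had 1, 1 and 0 ends in all, whereas the 50 bp on its distal side had 153, 150 and 166 EPM and the 50 bp on its proximal side 60.8, 32.4 and 68.4. Free MNase had 8 ends inside the COX6 match, or 1.59 EPM, with 3.59 EPM in the distal and 1.20 in the proximal 50 bp. Per bp this was 0.123 EPM inside, 0.0717 distal and 0.0239 proximal, on few ends. The gap was not particular to Abf1 cells: Rap1 libraries had 1, 0 and 0 ends inside the COX6 match and Reb1 libraries 0, 0 and 2, with distal flanks of 7.96, 7.54 and 8.24 EPM in Rap1 and 2.55, 5.38 and 6.54 in Reb1.

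The QCR2 match, 194 bp upstream (chrXVI:919181-919193), had 0 ends in each of the 3 Abf1 libraries, which allows up to 0.347, 0.559 and 0.598 EPM (3 ends, counting error only). Its flanks had 48.8, 34.1 and 49.1 EPM on the distal side and 57.9, 48.8 and 56.6 on the proximal side. Rap1 and Reb1 libraries also had 0 ends inside the QCR2 match, with 1.59 to 5.09 EPM in either flank in Rap1 and 1.22 to 3.07 in Reb1. Free MNase had 3 ends there, or 0.046 EPM per bp, below its 0.0757 distal and 0.128 proximal. The QCR8 match, 240 bp upstream on the other strand (chrX:106188-106200), had 0, 0 and 1 ends in Abf1 libraries and 11 in free MNase, with flanks in Abf1 libraries of 34.0, 26.1 and 27.1 EPM distal and 18.5, 8.75 and 17.4 proximal. Rap1 and Reb1 libraries had 0 ends inside the QCR8 match as well, with distal flanks of 7.90 to 9.50 EPM in Rap1 and 2.80 to 9.61 in Reb1. What set the Abf1 libraries apart at COX6, QCR2 and QCR8 was thus the level of cutting in the flanks, and few or 0 ends lay over the match in all 3 factors.

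**Figure D3:**
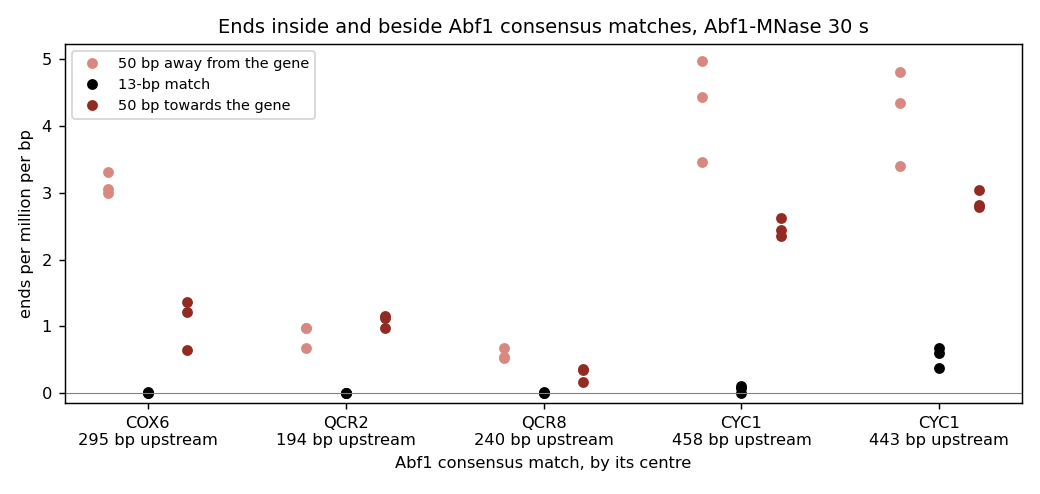
Abf1 cleavage density at 30 s, in EPM per bp, in the 50 bp distal to each Abf1 consensus match, in the 13-bp match and in the 50 bp proximal to it, with a point for each Abf1 library. At COX6, QCR2 and QCR8 the density inside the match falls to near 0 between 2 cut flanks.

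CYC1 held a cluster of matches 430 to 458 bp upstream, nearer to its start codon than to ANB1's. The Abf1 consensus was matched at 458 bp (chrX:525871-525883) and 443 bp (chrX:525886-525898), both on the other strand, and TTACCC at 430 bp (chrX:525902-525907). Abf1 libraries cut both sides of the cluster. In the densest Abf1 window, on its distal side (chrX:525819-525869), CYC1 had 249.5, 173 and 222 EPM in Abf1 libraries, 16.2, 11.7 and 9.50 in Rap1, 11.8, 9.19 and 8.59 in Reb1 and 0.598 in free MNase. The densest Reb1 window, on the proximal side (chrX:525911-525961), had 150.3, 149.9 and 159.9 EPM in Abf1 libraries, 15.8, 16.2 and 12.9 in Rap1, 144, 187 and 206 in Reb1 and 1.99 in free MNase. In the 50 bp flanking TTACCC, Abf1 libraries had 234, 172 and 210 EPM distal and 144, 143 and 155 proximal, whereas Reb1 libraries had 9.24, 8.74 and 7.16 distal and 142, 186 and 203 proximal, so that Reb1 cut mostly on 1 side. Within the 6 bp of TTACCC there were 2, 1 and 2 ends in Abf1 and 2, 1 and 0 in Reb1 libraries. Of the Abf1 matches, the one at 458 bp had 1.502, 0 and 0.997 EPM in Abf1 libraries, and the one at 443 bp had 8.78, 7.82 and 4.99. Within 50 bp of the match at 443 bp the mean was 351 EPM in Abf1, 24.1 in Rap1 and 181 in Reb1 libraries, and free MNase was low, with 4.38.

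**Figure D4:**
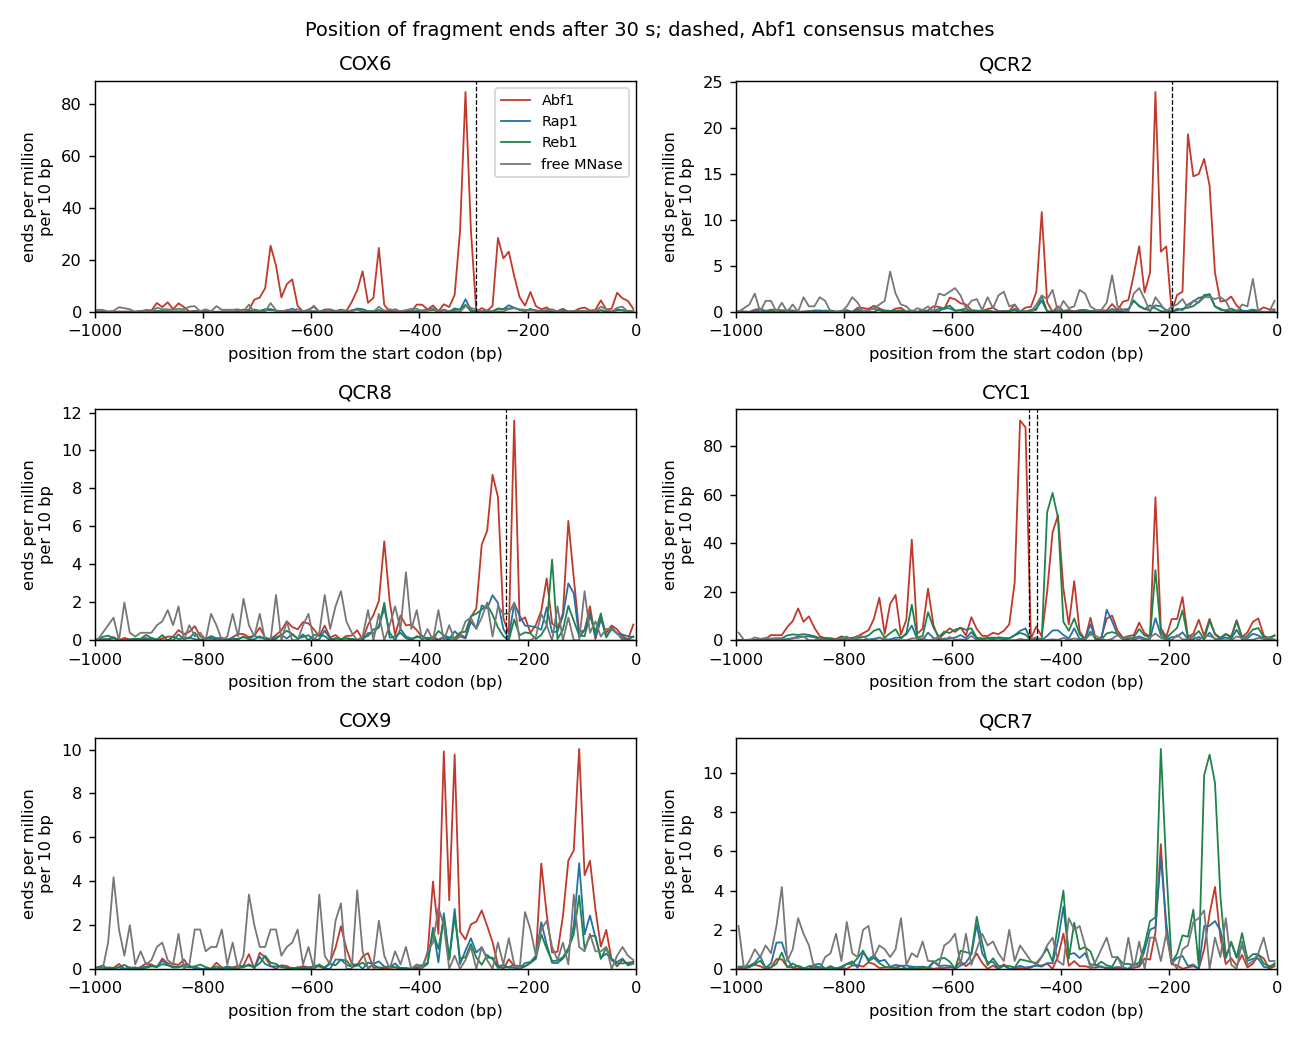
Mean EPM in 10-bp bins over the 1000 bp upstream of COX6, QCR2, QCR8, CYC1, COX9 and QCR7 at 30 s, as a line for each of Abf1, Rap1, Reb1 and free MNase, against distance from the start codon in bp. Dashed lines mark Abf1 consensus matches, and Abf1 peaks flank them, while at CYC1 the Reb1 line rises only on the side of the start codon.

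COX9 and QCR7, which have none of the factor motifs searched, had smaller windows of dense cleavage. The densest Abf1 window of COX9, centred 98 bp upstream, had 28.7, 33.5 and 33.3 EPM in Abf1, 13.8, 12.6 and 12.2 in Rap1, 5.6, 8.7 and 14.3 in Reb1 and 7.57 in free MNase. The densest single window in Abf1 replicate 2 was another, 352 bp upstream, so the place of the COX9 maximum was not stable between libraries. At QCR7 the densest window of the mean over the 3 Reb1 libraries, centred 114 bp upstream, had 6.36, 14.9 and 9.17 EPM in Abf1, 7.8, 11.7 and 10.1 in Rap1, 26.0, 37.0 and 42.7 in Reb1 and 7.77 in free MNase. Over the whole 1000 bp QCR7 had a level in Reb1 libraries near that of free MNase. The COX9 and QCR7 windows were each chosen where the named factor's own libraries were highest. An excess of that factor inside them follows in part from this choice and is a description. In the single Reb1 libraries the densest QCR7 window was centred 139, 108 and 139 bp upstream, so its place also differed between libraries.

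The courses of digestion read differently in EPM and relative to the median promoter, whose own level rose. In EPM, 3 of the 10 had their highest level at or before 60 s in Abf1 cells (COX6 and CYC1 at 10 s, QCR2 at 30 s), compared with 0 of 10 in Rap1 and 0 of 10 in Reb1 cells. In free MNase cells 7 of the 10 did so, 5 of them without the shallow 20 s library and 2 when only bases outside other genes were counted. Relative to the median promoter of the same library, 4 of the 10 were highest by 60 s in Abf1 cells (COX6, QCR2 and CYC1 at 10 s, QCR8 at 20 s), 6 in Rap1 cells (COX4, COX7, COX9, QCR2, CYC1 and QCR7), 1 in Reb1 cells (CYC1) and 7 in free MNase cells. The contrast between Abf1 and Rap1 thus held in EPM alone. The same counts were not made over all promoters, so whether the 10 differ from other promoters in this was not tested. The median promoter itself was highest in EPM at 10 m in Abf1 cells and at 20 m in Rap1, Reb1 and free MNase cells. Each point is 1 library, and points taken from the same digest share a culture. In Abf1, Rap1 and Reb1 cells the points in seconds and in minutes carry different library codes, so a step between 60 s and 2.5 m cannot be told apart from the change of code, whereas the free MNase course carries 1 code.

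The level of COX6 in Abf1 cells was 531 EPM at 10 s, 525 at 20 s, 502 at 30 s, 426 at 40 s, 418 at 50 s and 367 at 60 s, then 255 at 2.5 m, 205 at 5 m, 161 at 10 m and 129.6 at 20 m. The fall within the first 60 s lies within 1 library code. Over the same course the median promoter in Abf1 cells had 44.4 EPM at 10 s and 122 at 20 m, so COX6 had 12.0 times the median promoter at 10 s and 1.07 times it at 20 m. CYC1 in Abf1 cells had 1169 EPM at 10 s, 696 at 60 s, 539.6 at 2.5 m and 194 at 20 m, and QCR2 had 170.2 at 10 s, 166 at 60 s, 129 at 2.5 m and 78.4 at 20 m. The mean level at 2.5 m and later was 0.407 of the mean up to 60 s for COX6, 0.379 for CYC1 and 0.561 for QCR2, but 1.09 for QCR8 and 1.95 to 3.52 for the other 6. QCR7, for example, had 25.3 EPM at 10 s and 118 at 20 m in Abf1 cells.

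In Rap1 and Reb1 cells the levels in EPM rose after the first points. CYC1 had 114 EPM at 10 s, 281 at 60 s, 453 at 5 m and 317 at 20 m in Rap1 cells, and 297 at 10 s, 398 at 60 s, 621 at 2.5 m and 459 at 20 m in Reb1 cells. QCR7 in Reb1 cells had 51.9 at 10 s, 112 at 60 s and 308 at 2.5 m. COX6 in Reb1 cells had 28.0 at 10 s, 41.3 at 60 s, 87.9 at 2.5 m and 287 at 20 m, the last of which was 2.54 times the median promoter. COX6 was thus lower in Abf1 cells, at 129.6 EPM, than in Reb1 cells at 20 m. The same order held at 20 m in the window just distal to the Abf1 match of COX6, with 21.6 EPM in Abf1 cells and 104.8 in Reb1 cells, where the Abf1 course had begun at 166 EPM at 10 s. It was not particular to COX6. Within 50 bp of the 1779 Abf1 consensus matches of the genome, ends at 20 m were 2.23 times the genome mean in Abf1 cells. They were 2.79 times it in Rap1 and 4.24 times in Reb1 cells. The single Abf1 and Reb1 libraries at 20 m differ in library code and in median fragment length (194 and 99 bp), whose part was not tested. For the 10 promoters the mean from 2.5 m on was 1.65 to 4.13 times the mean up to 60 s in Rap1 cells and 1.58 to 5.74 times in Reb1 cells. The median promoter rose as well, with 19.5 EPM at 10 s and 122 at 20 m in Rap1 cells and 33.3 at 10 s and 113 at 20 m in Reb1 cells. Relative to it CYC1 was lower at 20 m than at 10 s in all 3 factors, with 26.3 times the median promoter at 10 s and 1.59 times at 20 m in Abf1 cells, 5.85 and 2.59 times in Rap1 cells and 8.94 and 4.06 times in Reb1 cells. COX6 had 1.18 times the median promoter at 10 s and 1.19 times at 20 m in Rap1 cells, and 0.843 times at 10 s in Reb1 cells.

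**Figure D5:**
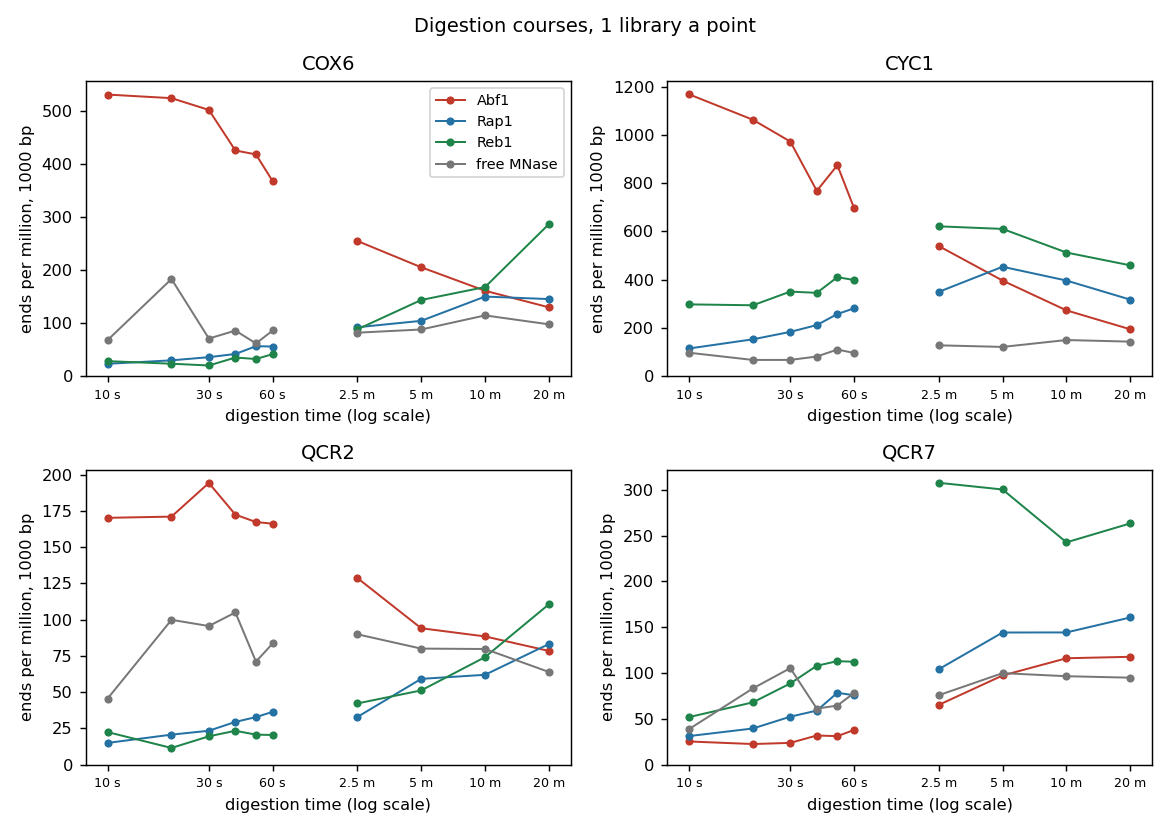
Level of COX6, CYC1, QCR2 and QCR7 in EPM at 10 time points after calcium, between 10 s and 20 m, in Abf1, Rap1, Reb1 and free MNase cells, with 1 library a point. In Abf1 cells COX6 and CYC1 are highest at 10 s and fall through the course, while QCR7 in Reb1 cells is highest at 2.5 m.

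Without calcium the 10 promoters ranged over 70.1 to 102 EPM in Abf1 cells, 82.4 to 144 in Rap1 cells, 68.2 to 242 in Reb1 cells and 78.6 to 113 in free MNase cells. The highest of these was CYC1 in Reb1 cells, and the level of COX6 without calcium was 79.8 in Abf1 cells, far below its level at 10 s. The crosslinked MNase-X-ChIP-seq library of Abf1 gave a narrow range over the 10, between 76.9 at QCR2 and 131.8 at CYC1. CYC1 exceeded 95.7% of all promoters in it, whereas COX6 at 84.8 EPM exceeded 49.5% and QCR2 20.0%. Ends within 50 bp of the Abf1 consensus were 1.34 times the genome mean in this library, against 12.35 to 14.9 times in Abf1 libraries at 30 s. These ratios are unlike measures. The median crosslinked fragment was 177 bp long, so a fragment of that length centred on a match has its ends outside this window. Coverage by fragments, which the paper's plots of Abf1 enrichment may reflect, was not computed. What a middle or low rank by ends says about Abf1 at a promoter was not tested.

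Other forms of the fusions kept some of these patterns. Abf1 with the shorter linker gave 532.9 EPM at COX6, 734.5 at CYC1, 218.2 at QCR2 and 130.5 at QCR8 at 30 s, and 253.9, 356.9, 144.4 and 157.0 at these promoters at 5 m. Its 30 s levels at COX6, QCR2 and QCR8 were somewhat above, and that at CYC1 below, those of the 3 Abf1 libraries with the longer linker. Reb1 with the shorter linker gave 447.2 at CYC1 and 117.4 at QCR7 at 30 s, both inside the range of the Reb1 libraries. Reb1 with N-terminal MNase gave 310.4 at CYC1, below that range, and 230.0 at QCR7, above it. In the window distal to the cluster of CYC1, N-terminal Reb1 had 59.2 EPM at 30 s and 66.9 at 5 m, where Reb1 with C-terminal MNase had 8.59 to 11.8 and the short linker 18.3 at 30 s. On the proximal side of the CYC1 cluster N-terminal Reb1 had 81.6 and 87.1. These are single libraries, the N-terminal fusion was on a plasmid in cells without chromosomal REB1, and the differences were not tested.

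The other 34 nuclear genes listed for complexes II, III, IV and V, cytochrome c, the NADH dehydrogenases and the Hap regulators were read in the same fits. In Abf1 against Rap1, 17 of the 34 were higher and 0 lower, against 49.1% and 11.2% of all promoters. With TMM factors 8 were higher and 7 lower, against 25.7% and 22.2%. Abf1 against Reb1 gave 7 higher and 10 lower (32.2% and 19.4% of all), or 7 and 11 with TMM factors (24.9% in each direction). Rap1 against Reb1 gave 2 higher and 13 lower (15.1% and 37.1%), or 7 and 12 (21.9% and 25.5%). Against free MNase, 15 were higher and 6 lower in Abf1 (31.6% and 32.5%), or 15 and 5 with TMM factors (33.2% and 29.6%). In Rap1 8 were higher and 11 lower (15.7% and 58.2%). TMM factors gave 15 and 4 there (25.7% and 32.4%), which turned the balance. In Reb1 16 were higher and 5 lower, or 19 and 3, where 24.3% of all promoters were called higher and 45% lower, or 29.7% and 28.2% with TMM factors. The list as a whole was not tested.

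ATP15, the epsilon subunit of ATP synthase, had the largest change among them in Abf1 over Rap1, with 845 to 981 EPM in Abf1 libraries and 49 to 60 in Rap1 libraries (4.10 ± 0.21, limma adjusted p = 6.2e-14), followed by ATP16, the delta subunit (3.99), and SDH2, the iron-sulfur subunit of complex II (3.65). ATP5, the oligomycin sensitivity subunit, was lower in Abf1, with 116 to 129 EPM, than in Reb1 libraries, with 1913 to 2355 (−4.12 ± 0.19, adjusted p = 2.5e-14), and lower in Rap1 than in Reb1 by −5.77. COX13, subunit VIa of cytochrome c oxidase, was lower in Abf1 than in Reb1 by −3.41 and in Rap1 than in Reb1 by −4.52, and HAP2, a subunit of the CCAAT-binding Hap complex, was lower in Rap1 than in Reb1 by −4.61. COR1, the other core subunit of complex III, was high in all 3 factors, with 905 to 1273 EPM in Abf1, 713 to 1005 in Rap1 and 1030 to 1244 in Reb1 libraries and 67 in free MNase. HAP1, the heme-responsive regulator, was higher in Rap1 than in free MNase by 3.86 ± 0.29, and HAP2 was lower by −3.12 ± 0.34. Against free MNase the next largest were ATP14 in Abf1 (3.55), and ATP5 (5.45), COX13 (4.53) and NDI1, the internal NADH dehydrogenase (4.47), in Reb1. None of the 10 promoters reached the Reb1 levels of ATP5, COX13 or NDI1.

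Over the 56 ChEC-seq libraries, the promoters with levels most like those of COX6 were LHP1, which encodes the yeast La protein (Pearson r = 0.974 of log2 levels), LAS21, an enzyme of GPI anchor synthesis (0.974), and COA3, a cytochrome c oxidase assembly factor (0.973). LAS21 and COA3 are neighbours that share upstream sequence. LHP1 had 259 to 314 EPM in Abf1 libraries at 30 s, 44.9 to 57.0 in Rap1 and 27.3 to 35.2 in Reb1 libraries. For QCR8 the closest were BAR1, the protease that degrades alpha factor (0.922), SAT4, a protein kinase (0.921), and FSH1, a serine hydrolase (0.919). These correlations describe the likeness of levels, and the libraries share factors, cultures and depth.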

How the data were processed

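Reads of 57 samples were sequenced in paired-end mode. The submitters' processing notes name Novoalign 2.08.03 and sacCer3, and the authors deposited mapped fragments as start and end positions, with no normalization. Small fragments had been selected before sequencing, and molecular identifiers were not used, so intervals cover counting error only. Both ends of each fragment were counted in 1000 bp upstream of 5977 of 6002 protein-coding genes, leaving out windows off a chromosome or in the ribosomal DNA (XII, 451000 to 490000), and scaled to nuclear ends outside it. The planned test was a count test, but the deposited values are fragments, so edgeR and DESeq2 were not used. Counts with the equivalent of 10 ends in 3 libraries and 15 in all (5971 promoters) were tested with limma 3.58.1 (voom, R 4.3.3; Python 3.11.15) over the 10 libraries at 30 s, with 0.05 and 2-fold as thresholds. On simulated counts for Abf1 versus Rap1 over 5971 promoters, 100% of 200 changed promoters were recovered.

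The 10 promoters and all lists were chosen with earlier results of these data known. All 10 are named, with, for each comparison, the up to 3 other listed genes of largest change among those called and the 3 promoters most correlated with COX6 and QCR8. TTACCC was added after the values were seen. Where 2 libraries share a replicate number, deviations of promoters correlated at 0.45, 0.23 and 0.23 between Abf1 and Rap1, which share library codes in each pair, but at −0.15, −0.24 and 0.11 between Abf1 and Reb1. Abf1 replicate 2 and Rap1 replicate 3, of unlike number but the same code, also correlated at 0.23. Abf1 and Rap1 libraries of different codes correlated at −0.25 to −0.35. The correlations of Abf1 with Rap1 thus went with the code, and a pairing by number was not shown. Alternatives were TMM and median-of-ratios factors, identical fragments counted once, 500 bp, bases outside other genes, other library totals, no filter, an adjusted p alone, a replicate block, the library code, pooled free MNase points, levels relative to the median promoter, limma-trend and each replicate left out.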

Additional observations from a re-analysis of the deposited data

How the results depend on the processing

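The calls for COX6 and QCR2 in Abf1 against Rap1 and Reb1 and for COX6 and CYC1 in Abf1 against free MNase held under every alternative run. COX6 ranged over 2.77 to 3.90 for Abf1 over Rap1 and 3.16 to 4.38 for Abf1 over Reb1. Other calls near 2-fold moved with the scaling. Abf1 against Rap1 had 3 promoters of the 10 higher and 2 lower with TMM factors (1533 and 1327 of all) and with median-of-ratios factors (1479 and 1396 of all), 3 higher and 1 lower with identical fragments counted once, and 1 lower with 500 bp or an adjusted p alone. COX5A there turned to −0.36 with TMM and −0.41 with median-of-ratios factors. Rap1 against Reb1 had 2 of the 10 higher with TMM factors, 2 lower with 500 bp or with bases outside other genes, 2 higher and 3 lower with an adjusted p alone, 0 higher and 3 lower with the library code as a term, and 2 higher and 0 lower with median-of-ratios factors (1426 and 1428 of all).

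Abf1 against free MNase had 5 of the 10 higher and 1 lower with 500 bp, and 5 higher and 0 lower with bases outside other genes (921 of all lower). In the main fit 31.6% of all promoters were called higher and 32.5% lower in this comparison. Rap1 against free MNase had 2 higher with TMM factors (1533 higher and 1935 lower of all), 2 higher with identical fragments counted once (2305 lower of all), 7 lower with an adjusted p alone, 0 higher and 8 lower with the library code, 0 higher with the free MNase libraries up to 60 s as 1 group, and 2 higher and 1 lower with median-of-ratios factors (1678 and 1634 of all). In that comparison COX6, COX8, QCR7 and QCR8 changed sign, to 0.091, 0.050, 0.11 and 0.17 with TMM factors, 0.38, 0.40, 0.11 and 0.35 with bases outside other genes, and 0.27, 0.23, 0.29 and 0.34 with median-of-ratios factors. Reb1 against free MNase had 3 lower with TMM factors (1682 of all), 2 lower with identical fragments counted once (1499 of all), 2 higher and 1 lower with bases outside other genes (1633 of all lower), and 3 lower with median-of-ratios factors (1545 of all). The free MNase count of promoters highest by 60 s was 3 with 500 bp and 2 with bases outside other genes, and relative to the median promoter the counts were 6 in Rap1 and 1 in Reb1 cells. The cause was not tested in any of these. For alternatives given without a count of all promoters, that count stayed nearer its value in the main fit than those printed here. Whether the 10 moved beyond all promoters was not tested.

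With each replicate left out in turn, the 10 promoters had 0 to 1 lower in Abf1 against Rap1, 4 to 6 higher in Abf1 against Reb1, 1 to 3 lower in Rap1 against Reb1, 2 to 3 higher in Abf1 against free MNase, 0 to 1 higher and 3 to 4 lower in Rap1 against free MNase, and 4 to 7 lower in Reb1 against free MNase. Over all promoters these counts were, in the same sequence, 653 to 703, 1780 to 2041, 2117 to 2345, 1864 to 1936, 921 to 962, 3415 to 3511 and 2446 to 2891. A replicate block left the 5 higher and 0 lower of Abf1 against Rap1 as they were, and gave 7 lower in Rap1 against free MNase, where the numbers pair no samples. It also brought QCR2 in Abf1 against free MNase to 1.03. DESeq2 and edgeR were planned and not run. Median-of-ratios factors, limma-trend, leaving out the 20 s free MNase library and levels relative to the median promoter were chosen after seeing the data. Depth limits the free MNase group, with 1 library at 30 s, and matches with few ends.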
